A study of Rattus norvegicus with 12 samples.

Results

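The genes described here are 10 enzymes of the defence against oxidative stress, Hmox1, Nqo1, Gclc, Gclm, Txnrd1, Srxn1, Sod1, Sod2, Cat and Gpx1, chosen by name as classical targets of the transcription factor Nrf2 or as main antioxidant enzymes. All 10 were found by symbol, once each, among the 32761 features of the deposited expression table, and all 10 passed the filter on low values together with 12493 genes in all. The RNA came from iAM-1, a line of neonatal atrial heart muscle cells of the wistar rat that proliferates when doxycycline induces a temperature-sensitive large T antigen (LT-tsA58) and differentiates in its absence. Every group was differentiated without doxycycline in medium with 2% FBS, and a feature named for the T antigen was counted in all of them. Every sample title also holds D9 and P10, which the titles do not spell out. The groups were cells given lentiviral Sbk2 shRNA 1, cells given lentiviral Sbk2 shRNA 2, cells given a lentiviral shRNA labelled ppluc, and cells left untransduced, with 3 libraries in each. Vector was added just after differentiation began, and the vector's feature names include eGFP. The labels do not say whether the line is 1 clone or whether libraries sharing a label are separate cultures. A number in the sample titles differs between the libraries of untransduced and ppluc cells and is the same for all Sbk2 shRNA libraries. What that number stands for is not given. The p-values therefore measure the spread between these libraries, which may be technical. Values are read counts scaled to the library total (CPM), read totals ran from 30274847 to 47517427 per library, and each group has n = 3. A change is a log2 difference of log2(CPM + 0.5), given ± its limma SE, which rests on the spread within all 4 groups. Gene coordinates are those of the deposited table with 1 added to each start, and the submitters' processing notes give the build as Rnor_6.0.

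Nrf2, encoded by Nfe2l2, is held in the cytosol and marked for degradation by the adaptor Keap1. When oxidants or electrophiles modify Keap1, Nrf2 accumulates, pairs with a small Maf protein and binds antioxidant response elements in the promoters of genes for quinone reduction, haem breakdown and the glutathione and thioredoxin systems. Superoxide dismutases turn superoxide into hydrogen peroxide, which catalase, glutathione peroxidases and peroxiredoxins then remove. Heart muscle cells are rich in mitochondria, a steady source of superoxide. Sbk2, the gene targeted by the shRNAs, encodes a kinase of the SH3-binding domain kinase family.

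The core of the antioxidant response element was looked for as TGACNNNGC, on both strands, in RefSeq promoter windows on GRCr8 that run from 250 bases before to 50 bases after a gene's annotated start. TGAGNNNGC was added once the letters had been read. Windows were present for 9 of the 10 genes, all but Hmox1, and Txnrd1 has 2. TGACNNNGC matched in the windows of Gclm, Sod2 and the second Txnrd1 start, and TGAGNNNGC matched in those of Srxn1 and Gpx1. Of all 33469 windows of this length, 12.1% held the first motif, 17.2% the second and 27.1% either one. The windows of the 2 subunits of glutamate-cysteine ligase, which parted in these cells, and of Srxn1 and Txnrd1 are shown 5′ to 3′ in the direction of transcription, with every match in capitals. A match is only a run of letters, and no match says only that the letters are not in this window.
Gclc (chr8:87510226-87510525, plus strand): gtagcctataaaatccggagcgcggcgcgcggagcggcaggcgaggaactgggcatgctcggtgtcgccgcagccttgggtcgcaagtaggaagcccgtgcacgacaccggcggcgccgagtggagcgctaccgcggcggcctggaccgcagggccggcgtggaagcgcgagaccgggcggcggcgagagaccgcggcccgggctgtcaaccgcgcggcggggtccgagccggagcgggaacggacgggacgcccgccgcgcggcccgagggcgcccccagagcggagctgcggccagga
Gclm (chr2:213031885-213032184, plus strand): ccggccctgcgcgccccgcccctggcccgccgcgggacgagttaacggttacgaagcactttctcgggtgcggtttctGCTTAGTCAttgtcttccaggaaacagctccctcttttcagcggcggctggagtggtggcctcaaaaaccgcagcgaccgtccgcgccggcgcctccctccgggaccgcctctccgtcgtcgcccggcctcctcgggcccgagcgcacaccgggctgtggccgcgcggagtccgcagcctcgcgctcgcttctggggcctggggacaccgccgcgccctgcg
Srxn1 (chr3:161064562-161064861, plus strand): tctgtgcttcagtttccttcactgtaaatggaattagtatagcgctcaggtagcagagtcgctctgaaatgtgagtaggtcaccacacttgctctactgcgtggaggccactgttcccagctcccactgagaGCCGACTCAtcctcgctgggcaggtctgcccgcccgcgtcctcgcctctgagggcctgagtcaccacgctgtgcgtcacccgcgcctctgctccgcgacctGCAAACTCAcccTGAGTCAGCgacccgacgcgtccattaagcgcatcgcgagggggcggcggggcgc
Txnrd1 (chr7:22755855-22756154, minus strand): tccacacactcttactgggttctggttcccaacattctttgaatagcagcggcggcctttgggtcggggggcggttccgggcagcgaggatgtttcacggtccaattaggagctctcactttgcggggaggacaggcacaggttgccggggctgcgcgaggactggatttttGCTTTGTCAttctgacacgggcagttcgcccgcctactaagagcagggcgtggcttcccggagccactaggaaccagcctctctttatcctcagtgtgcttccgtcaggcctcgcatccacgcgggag
Gclm and Txnrd1 each hold 1 match to TGACNNNGC, written on the opposite strand. Srxn1 holds 3 matches to TGAGNNNGC, 2 of them on the opposite strand, and Gclc holds none.

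Sbk2 itself averaged 1.07 CPM with Sbk2 shRNA 1 and 0.673 CPM with Sbk2 shRNA 2, against 27.1 CPM with ppluc and 45.2 CPM in untransduced cells. On the deposited CPM the median log2 change of all tested genes against ppluc was 0.26 with Sbk2 shRNA 1 and 0.50 with Sbk2 shRNA 2, so changes of the 10 genes against ppluc are also given after scaling by a trimmed mean of ratios, which brings that median close to 0. All 8 atrial myocyte markers were expressed in every group, at a summed 31736 CPM with Sbk2 shRNA 1 and 19956 CPM with Sbk2 shRNA 2, against 63851 CPM with ppluc and 67867 CPM in untransduced cells. Of the 6 macrophage markers, Ptprc, Adgre1 and C1qa had no reads in any library and the sum of all stayed at or below 1.21 CPM. Of 5 fibroblast markers analysed Lum was at 0 throughout, and their sum was 25.0 to 28.9 CPM with Sbk2 shRNA 1 and 14.6 to 20.4 CPM with Sbk2 shRNA 2, against 116 to 149 CPM with ppluc and 76.9 to 88.4 CPM in untransduced cells. Cdh5 and Emcn of the 5 endothelial markers were at 0 throughout, and their sum, mostly Kdr, was 209 to 225 CPM with Sbk2 shRNA 1 and 56.4 to 97.8 CPM with Sbk2 shRNA 2, against 142 to 154 CPM with ppluc and 130.0 to 152 CPM in untransduced cells. The 3 smooth muscle markers summed to 298 to 312 CPM and 115 to 174 CPM with the shRNAs in that order, against 429 to 455 CPM with ppluc and 230.0 to 241 CPM in untransduced cells. The 3 epicardial markers summed to at most 41.8 CPM and the 3 nerve markers to at most 8.41 CPM. Vector eGFP was at 3283 to 3461 CPM with Sbk2 shRNA 1 and 2398 to 2619 CPM with Sbk2 shRNA 2, against 2147 to 2556 CPM with ppluc, and the LT-tsA58 feature was at 8.54 to 10.1 CPM and 18.8 to 19.7 CPM with the Sbk2 shRNAs, against 7.95 to 9.05 CPM with ppluc and 10.5 to 13.0 CPM in untransduced cells. The part of these values in the results was not tested, and fewer cells of a kind cannot be told apart from less RNA per cell.

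Haem oxygenase 1 (Hmox1), which breaks haem down, the quinone reductase Nqo1 and sulfiredoxin (Srxn1), which repairs over-oxidised peroxiredoxins, were higher with either Sbk2 shRNA than with ppluc, and higher with ppluc than in untransduced cells. Hmox1 (ENSRNOG00000014117, chr19:14508616-14515456) was at 184, 185 and 188 CPM in the libraries of Sbk2 shRNA 1 and at 173, 171 and 191 CPM in those of Sbk2 shRNA 2, against 91.0, 91.3 and 84.6 CPM with ppluc and 42.9, 39.3 and 42.8 CPM in untransduced cells. The 3 levels did not overlap: both Sbk2 shRNA groups were highest, ppluc lay between and untransduced cells were lowest. On the log2(CPM + 0.5) scale Hmox1 rose by 1.06 ± 0.05 with Sbk2 shRNA 1 (adjusted p = 5.9e-12) and by 1.00 ± 0.05 with Sbk2 shRNA 2 (adjusted p = 3.0e-12) against ppluc, in 3 of 3 libraries each. Trimmed-mean scaling left 0.79 and 0.46. Hmox1 was also higher with ppluc than in untransduced cells, by 1.08 ± 0.05 (adjusted p = 1.6e-11). The direct contrast of Sbk2 shRNA 1 with Sbk2 shRNA 2 was 0.06 ± 0.05, with a 95% interval of -0.05 to 0.17 (adjusted p = 0.30), and 0.32 after trimmed-mean scaling (adjusted p = 3.0e-05).

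Nqo1 (ENSRNOG00000012772, chr19:38422164-38437180) was at 26.2, 22.5 and 23.5 CPM with Sbk2 shRNA 1 and 22.3, 26.6 and 25.8 CPM with Sbk2 shRNA 2, against 10.6, 9.89 and 10.4 CPM with ppluc and 7.97, 6.87 and 8.10 CPM in untransduced cells. All 6 Sbk2 shRNA libraries stood above all 6 others. Nqo1 rose by 1.18 ± 0.09 with Sbk2 shRNA 1 (adjusted p = 2.0e-09) and by 1.23 ± 0.09 with Sbk2 shRNA 2 (adjusted p = 3.9e-10), or by 0.92 and 0.71 after trimmed-mean scaling. With ppluc it was 0.41 ± 0.09 above untransduced cells (adjusted p = 8.7e-04). Srxn1 (ENSRNOG00000031167, chr3:147609095-147632801) was at 30.3, 28.7 and 35.1 CPM with Sbk2 shRNA 1 and 24.4, 22.9 and 23.2 CPM with Sbk2 shRNA 2, against 8.51, 9.27 and 8.75 CPM with ppluc and 2.98, 3.75 and 3.73 CPM in untransduced cells. The 4 groups did not overlap, in the order in which they are named here. Srxn1 rose by 1.76 ± 0.10 with Sbk2 shRNA 1 (adjusted p = 2.6e-11) and by 1.36 ± 0.10 with Sbk2 shRNA 2 (adjusted p = 2.4e-10), or by 1.50 and 0.84 after trimmed-mean scaling. Against untransduced cells ppluc was higher by 1.23 ± 0.10 (adjusted p = 7.9e-09). Srxn1 was also higher with Sbk2 shRNA 1 than with Sbk2 shRNA 2, by 0.40 ± 0.10 (adjusted p = 9.3e-04).

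**Figure D1:**
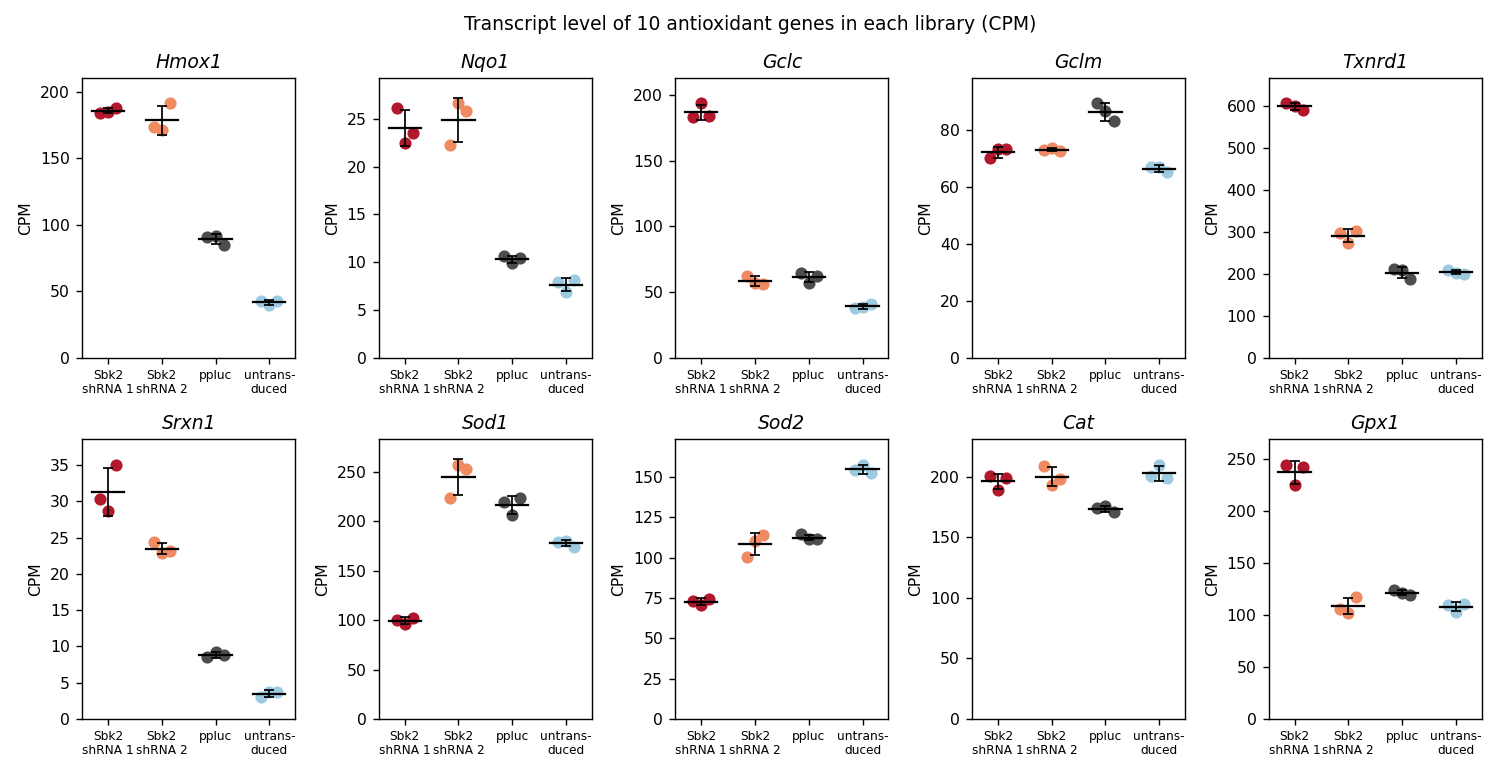
Level of each of the 10 genes in CPM (linear axis from 0) in the 12 libraries, with 1 panel a gene and the groups from left to right Sbk2 shRNA 1, Sbk2 shRNA 2, ppluc and untransduced; points are libraries, horizontal lines group means and error bars SDs (n = 3). Hmox1 averages 186 and 178 CPM with the Sbk2 shRNAs against 88.9 with ppluc, while Gclc averages 187 CPM with Sbk2 shRNA 1 and 58.5 with Sbk2 shRNA 2.

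Gclc, the catalytic subunit of glutamate-cysteine ligase, which makes the first step of glutathione synthesis (ENSRNOG00000006302, chr8:85059051-85097468), was by far highest with Sbk2 shRNA 1. It was at 183, 194 and 184 CPM with Sbk2 shRNA 1 and 62.4, 57.0 and 56.0 CPM with Sbk2 shRNA 2, against 64.3, 57.2 and 62.5 CPM with ppluc and 37.6, 38.5 and 41.1 CPM in untransduced cells. The libraries of Sbk2 shRNA 2 and ppluc overlapped, and every other pair of groups was apart. Gclc rose by 1.60 ± 0.06 with Sbk2 shRNA 1 (adjusted p = 1.1e-13, 1.33 after trimmed-mean scaling). With Sbk2 shRNA 2 the difference from ppluc was -0.07 ± 0.06 with a 95% interval of -0.19 to 0.05 (adjusted p = 0.26), and -0.60 after trimmed-mean scaling (adjusted p = 3.5e-08). The direct contrast of Sbk2 shRNA 1 with Sbk2 shRNA 2 was 1.67 ± 0.06 (adjusted p = 1.4e-14, 3 of 3 libraries).

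Gclm, the modifier subunit of the same ligase (ENSRNOG00000013409, chr2:225827504-225847874), moved differently. It was at 70.1, 73.3 and 73.5 CPM with Sbk2 shRNA 1 and 73.0, 73.7 and 72.7 CPM with Sbk2 shRNA 2, against 89.4, 86.9 and 83.2 CPM with ppluc and 67.2, 67.0 and 65.2 CPM in untransduced cells. Both Sbk2 shRNA groups lay below ppluc, and Gclm fell by 0.26 with Sbk2 shRNA 1 (SE 0.04, adjusted p = 4.7e-05) and by 0.24 with Sbk2 shRNA 2 (SE 0.04, adjusted p = 6.4e-05). Trimmed-mean scaling gave -0.53 and -0.78. A ratio of reads within 1 library does not depend on how libraries are scaled. Gclc reads over Gclm reads came to 2.50 to 2.64 with Sbk2 shRNA 1 and 0.770 to 0.855 with Sbk2 shRNA 2, against 0.659 to 0.751 with ppluc and 0.560 to 0.630 in untransduced cells. The 4 ranges were apart, and by far the highest was that of Sbk2 shRNA 1.

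Thioredoxin reductase 1 (Txnrd1), the selenoenzyme that reduces cytosolic thioredoxin (ENSRNOG00000009088, chr7:26946125-26984400), was at 607, 601 and 591 CPM with Sbk2 shRNA 1 and 297, 273 and 303 CPM with Sbk2 shRNA 2, against 213, 209 and 188 CPM with ppluc and 210.4, 203 and 200.0 CPM in untransduced cells. The libraries of ppluc and of untransduced cells overlapped, and the Sbk2 shRNA 1 libraries stood highest. Txnrd1 rose by 1.56 ± 0.05 with Sbk2 shRNA 1 (adjusted p = 6.5e-14, 1.29 after trimmed-mean scaling). With Sbk2 shRNA 2 it was higher by 0.52 ± 0.05 on the deposited CPM (adjusted p = 3.5e-08), but at -0.02 after trimmed-mean scaling (adjusted p = 0.74). The contrast of Sbk2 shRNA 1 with Sbk2 shRNA 2 was 1.04 ± 0.05 (adjusted p = 2.7e-12). Between ppluc and untransduced cells the difference was -0.01 ± 0.05 with a 95% interval of -0.12 to 0.10 (adjusted p = 0.89). Txnrd1 reads over Srxn1 reads were 16.9 to 20.9 with Sbk2 shRNA 1 and 11.9 to 13.1 with Sbk2 shRNA 2, against 21.5 to 25.0 with ppluc and 53.6 to 70.6 in untransduced cells. This ratio was lowest with Sbk2 shRNA 2 and highest in untransduced cells.

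Glutathione peroxidase 1 (Gpx1), a selenoenzyme that removes peroxide with glutathione (ENSRNOG00000048812, chr8:117117430-117118522), was at 245, 225 and 242 CPM with Sbk2 shRNA 1 and 106, 102 and 117 CPM with Sbk2 shRNA 2, against 124, 121 and 119 CPM with ppluc and 110.0, 103 and 111 CPM in untransduced cells. The Sbk2 shRNA 1 libraries stood well above the other 9, which lay close together. Gpx1 rose by 0.96 ± 0.05 with Sbk2 shRNA 1 (adjusted p = 2.6e-11, 0.69 after trimmed-mean scaling) and fell by 0.17 with Sbk2 shRNA 2 (SE 0.05, adjusted p = 0.0075, -0.70 after trimmed-mean scaling). Catalase (Cat), the peroxisomal enzyme that splits peroxide without a reducing partner (ENSRNOG00000008364, chr3:93379874-93412058), stayed within a narrow band of 189 to 201 CPM with Sbk2 shRNA 1 and 193 to 209 CPM with Sbk2 shRNA 2, against 171 to 176 CPM with ppluc and 199 to 210.2 CPM in untransduced cells. Cat was higher than with ppluc by 0.18 ± 0.04 with Sbk2 shRNA 1 (adjusted p = 0.0014) and 0.20 ± 0.04 with Sbk2 shRNA 2 (adjusted p = 3.0e-04) on the deposited CPM, but the signs turned to -0.10 (adjusted p = 0.085) and -0.33 (adjusted p = 4.5e-06) after trimmed-mean scaling. The ratio of Gpx1 reads to Cat reads was 1.19 to 1.22 with Sbk2 shRNA 1 and 0.507 to 0.590 with Sbk2 shRNA 2, against 0.690 to 0.711 with ppluc and 0.491 to 0.557 in untransduced cells. The ratio was highest with Sbk2 shRNA 1. It compares groups and not the levels of the 2 genes, since CPM is not per length.

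The superoxide dismutases were low with Sbk2 shRNA 1. Sod1, the copper and zinc enzyme of the cytosol (ENSRNOG00000002115, chr11:30363280-30368862), was at 99.9, 96.4 and 103 CPM with Sbk2 shRNA 1 and 224, 257 and 253 CPM with Sbk2 shRNA 2, against 219.8, 206 and 223 CPM with ppluc and 179, 180.4 and 174 CPM in untransduced cells. The Sbk2 shRNA 1 libraries lay below all 9 others. Sod1 fell by 1.11 with Sbk2 shRNA 1 (SE 0.05, adjusted p = 3.4e-12, -1.39 after trimmed-mean scaling). With Sbk2 shRNA 2 it was higher than with ppluc by 0.17 ± 0.05 on the deposited CPM (adjusted p = 0.0049) and lower after trimmed-mean scaling, at -0.36 (adjusted p = 2.0e-06). The authors' group means in TPM gave a smaller difference for Sod1 between Sbk2 shRNA 1 and ppluc, a log2 ratio of -0.64 in TPM against -1.12 in CPM.

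Sod2, the manganese enzyme of mitochondria (ENSRNOG00000019048, chr1:47914759-47921587), was at 72.8, 70.5 and 74.6 CPM with Sbk2 shRNA 1 and 101, 110.5 and 114 CPM with Sbk2 shRNA 2, against 114, 111 and 112 CPM with ppluc and 155, 158 and 152 CPM in untransduced cells. Untransduced cells were highest and Sbk2 shRNA 1 lowest, and the libraries of Sbk2 shRNA 2 overlapped those of ppluc. Sod2 fell by 0.63 with Sbk2 shRNA 1 (SE 0.05, adjusted p = 2.1e-09, -0.90 after trimmed-mean scaling) and by 0.46 with ppluc against untransduced cells (SE 0.05, adjusted p = 3.0e-07). With Sbk2 shRNA 2 the difference from ppluc was -0.05 ± 0.05, with a 95% interval of -0.16 to 0.05 (adjusted p = 0.30), and -0.59 after trimmed-mean scaling (adjusted p = 1.3e-09). Sod1 reads over Sod2 reads were 1.37 to 1.38 with Sbk2 shRNA 1 and 2.21 to 2.33 with Sbk2 shRNA 2, against 1.85 to 2.00 with ppluc and 1.14 to 1.16 in untransduced cells, in 4 ranges that did not overlap.

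**Figure D2:**
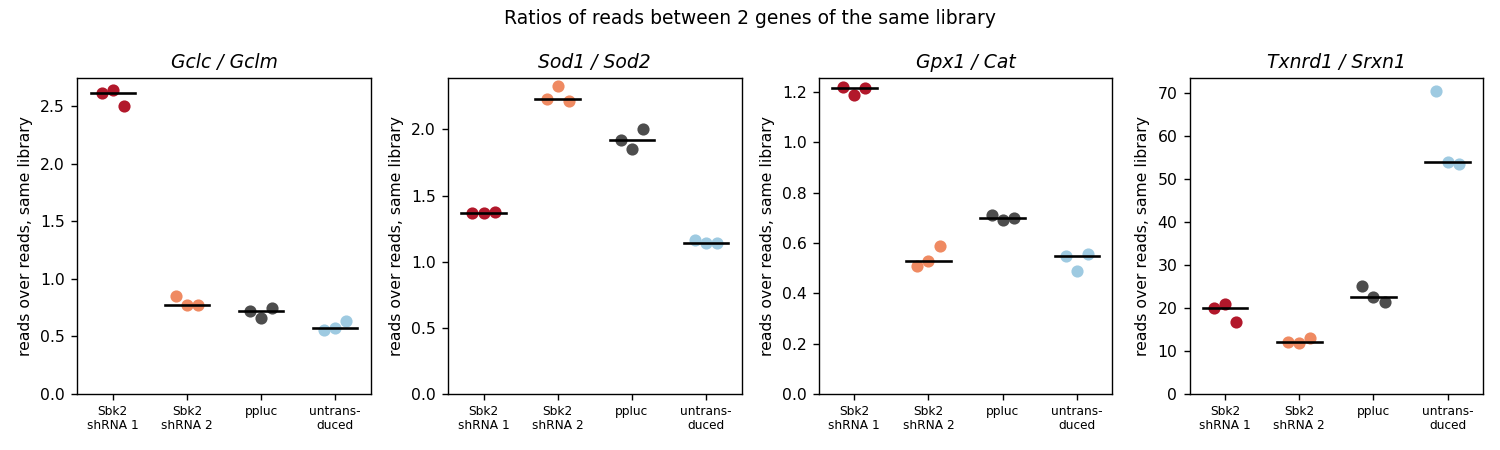
Ratios of reads between 2 genes of the same library (linear axis from 0), with 1 panel a pair, groups from left to right Sbk2 shRNA 1, Sbk2 shRNA 2, ppluc and untransduced, 1 point a library and a line at the group's median. Gclc over Gclm reaches 2.50 to 2.64 with Sbk2 shRNA 1 against 0.659 to 0.751 with ppluc, and Gpx1 over Cat 1.19 to 1.22 with Sbk2 shRNA 1 against 0.690 to 0.711 with ppluc.

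Against ppluc, 7 of the 10 genes were called higher and 3 lower with Sbk2 shRNA 1, where 54.7% of the 12493 genes tested were called higher and 18.7% lower at an adjusted p under 0.05. After trimmed-mean scaling the counts were 6 higher and 3 lower, beside 33.7% and 33.7% of all genes. With Sbk2 shRNA 2, 6 were higher and 2 lower than with ppluc, where 65.0% of all genes were higher and 21.1% lower, so that the higher share is close to that of all genes. After trimmed-mean scaling, Hmox1, Nqo1 and Srxn1 were the 3 called higher with Sbk2 shRNA 2, and 6 were lower, beside 40.2% and 40.8% of all genes. Both contrasts use the same ppluc libraries. Between the shRNAs, 4 genes were higher and 2 lower with Sbk2 shRNA 1 than with Sbk2 shRNA 2, against 27.7% and 53.2% of all genes. Those higher were Gclc, Txnrd1, Gpx1 and Srxn1, and those lower were Sod1 and Sod2. Vector eGFP, given above, was also highest with Sbk2 shRNA 1, and its part in this was not tested. Trimmed-mean scaling gave 8 higher and 2 lower, beside 38.9% and 38.8% of all genes.

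**Figure D3:**
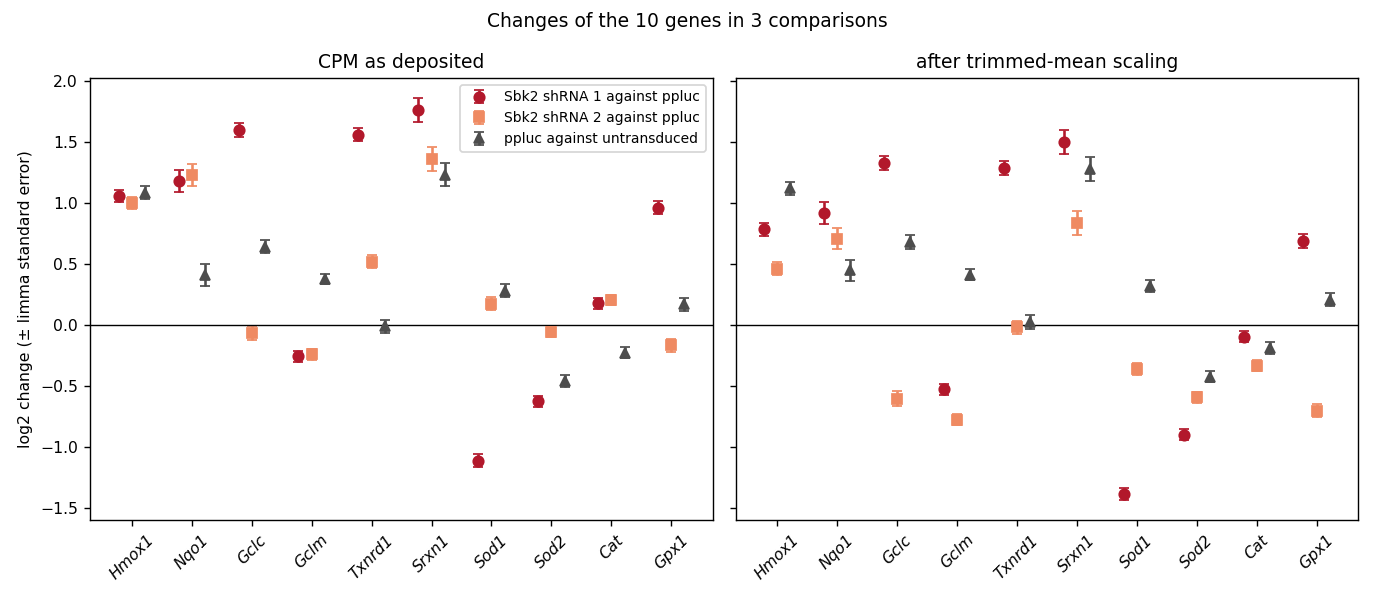
Log2 change (vertical axis) of each of the 10 genes with Sbk2 shRNA 1 and Sbk2 shRNA 2 against ppluc and with ppluc against untransduced cells, on the deposited CPM (left panel) and after trimmed-mean scaling (right panel); points are limma estimates and bars their SEs. Srxn1 is the highest against ppluc with Sbk2 shRNA 1 at 1.76 and with Sbk2 shRNA 2 at 1.36, while Sod1 is at -1.11 with Sbk2 shRNA 1 and 0.17 with Sbk2 shRNA 2.

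Most of these genes also differed between ppluc and untransduced cells. Between ppluc and untransduced cells 7 of the 10 were higher and 2 lower, where 24.9% of all genes were higher and 32.2% lower, and the counts were the same after trimmed-mean scaling, beside 28.3% and 29.0%. The 7 were Hmox1, Nqo1, Gclc, Gclm, Srxn1, Sod1 and Gpx1, and their log2 changes ran from 0.17 for Gpx1 to 1.23 for Srxn1. For Sod1, at a log2 ratio of 0.28 in the authors' CPM means, the ratio in their TPM means was -0.01. Gpx1 lost its call without 1 untransduced library, with a change of 0.14 (adjusted p = 0.065). Gclc was higher with ppluc by 0.64 ± 0.06 (adjusted p = 3.2e-08) and Gclm by 0.38 ± 0.04 (adjusted p = 1.2e-06). Sod2 and Cat were the 2 that fell, Cat by 0.23 (SE 0.04, adjusted p = 2.8e-04). Against untransduced cells, Sbk2 shRNA 1 had 7 genes higher and 2 lower, beside 51.4% and 24.3% of all genes, and 6 and 4 after trimmed-mean scaling, beside 36.1% and 36.1%. Gclm, one of these 7, lost its call when 1 of 3 particular libraries was left out, with adjusted p between 0.063 and 0.074, and had the opposite sign after either scaling. Sbk2 shRNA 2 had 7 higher and 1 lower, beside 62.7% and 23.0%, and 3 and 4 after trimmed-mean scaling, beside 39.8% and 41.6%. Srxn1 stood 3.00 ± 0.10 and 2.59 ± 0.10 above untransduced cells with Sbk2 shRNA 1 and Sbk2 shRNA 2, and Hmox1 2.14 ± 0.05 and 2.08 ± 0.05. The 10 genes together held 1685 to 1719 CPM with Sbk2 shRNA 1 and 1288 to 1354 CPM with Sbk2 shRNA 2, against 1062 to 1109 CPM with ppluc and 997 to 1013 CPM in untransduced cells. This order was not kept under another scaling: after trimmed-mean scaling the sums were 1618 to 1646 with Sbk2 shRNA 1 and 1007 to 1078 with Sbk2 shRNA 2, against 1231 to 1274 with ppluc and 1128 to 1148 in untransduced cells, so that Sbk2 shRNA 2 was lowest.

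Levels of different genes can be set side by side only per transcript length, in the authors' TPM means. In untransduced cells Sod1 was the most abundant of the 10 at 496 TPM and Gpx1 the next at 277 TPM. Cat at 109 TPM and Sod2 at 108 TPM were close, followed by Txnrd1 at 76.9, Gclm at 59.0, Hmox1 at 43.5, Gclc at 15.9, Nqo1 at 7.84 and Srxn1 at 4.27 TPM. No error can be given for TPM, since these are group means. With Sbk2 shRNA 1 the order had changed: Gpx1 was first at 631 TPM, Sod1 followed at 317 TPM, and Txnrd1 at 233 TPM and Hmox1 at 194 TPM stood above Cat at 108 TPM and Sod2 at 53.8 TPM. With Sbk2 shRNA 2, Sod1 was first at 566 TPM and Hmox1 the third at 169 TPM. With ppluc, Sod1 stood at 494 TPM and Gpx1 at 299 TPM.

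Of the 10 listed regulators of Nrf2, all of which were tested, 7 were higher and 0 lower (median 0.39) with Sbk2 shRNA 1 than with ppluc, and 9 were higher and 1 lower (median 0.73) with Sbk2 shRNA 2, where the medians over all tested genes were 0.26 and 0.50. The shares of all genes called higher and lower were 54.7% and 18.7% with Sbk2 shRNA 1 and 65.0% and 21.1% with Sbk2 shRNA 2. With Sbk2 shRNA 1 limma found no regulator lower at an unadjusted p under 0.05 either. After trimmed-mean scaling the higher and lower counts were 5 and 3 with Sbk2 shRNA 1 and 6 and 4 with Sbk2 shRNA 2, beside 33.7% and 33.7%, and 40.2% and 40.8%, of all genes. Nfe2l2 mRNA, for Nrf2 itself, averaged 189 CPM with Sbk2 shRNA 1 and 165 CPM with Sbk2 shRNA 2, against 149 CPM with ppluc and 131 CPM in untransduced cells. Its change against ppluc was 0.34 ± 0.04 with Sbk2 shRNA 1 and 0.14 ± 0.04 with Sbk2 shRNA 2, and trimmed-mean scaling moved these to 0.07 (adjusted p = 0.13) and -0.40 (adjusted p = 5.1e-08), so that the sign turned with Sbk2 shRNA 2. Nrf2 is controlled largely through its protein, which these data do not measure.

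Among its partners and opponents the small Maf gene Maff stood out with Sbk2 shRNA 2, at 32.2 to 43.6 CPM, against 2.90 to 3.05 CPM with ppluc. With Sbk2 shRNA 1 it was at 2.49 to 2.91 CPM. Its change against ppluc was -0.10 ± 0.15 with Sbk2 shRNA 1 (adjusted p = 0.55) and 3.48 ± 0.15 with Sbk2 shRNA 2 (adjusted p = 1.6e-13). After trimmed-mean scaling these were -0.34 (adjusted p = 0.047) and 2.97. The other small Mafs, Mafg and Mafk, rose with both: Mafg by 0.57 and 1.16, and Mafk by 0.89 and 1.43, with Sbk2 shRNA 1 and Sbk2 shRNA 2 in that order. After trimmed-mean scaling Mafg stood at 0.30 and 0.63 and Mafk at 0.62 and 0.90. Sqstm1, whose p62 protein competes for Keap1, rose by 1.14 and 0.81, and Bach1, a repressor at the same elements, by 0.79 and 0.79. Trimmed-mean scaling left 0.87 and 0.27 for Sqstm1 and 0.54 and 0.29 for Bach1. Keap1 rose by 0.67 ± 0.05 with Sbk2 shRNA 2 and stood at 0.07 ± 0.05 with Sbk2 shRNA 1 (adjusted p = 0.20), where trimmed-mean scaling gave 0.14 (adjusted p = 0.015) and -0.20 (adjusted p = 0.0014). Cul3 and Rbx1, of the ligase that Keap1 serves, were at 0.04 and 0.19 with Sbk2 shRNA 1 and at 0.14 and 0.24 with Sbk2 shRNA 2, and all 4 values were below 0 after trimmed-mean scaling. Nfe2l1, a relative of Nrf2, rose by 0.44 with Sbk2 shRNA 1 and fell by 0.89 with Sbk2 shRNA 2. Its values after trimmed-mean scaling were 0.16 and -1.43.

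In the wider pathway, 7 lists of other genes were counted in the same fit. Genes named from them were picked by p in Sbk2 shRNA 2 against ppluc or in ppluc against untransduced cells. None was picked by its change with Sbk2 shRNA 1, so large changes with that shRNA can go unnamed. Against ppluc, on the deposited CPM, 54.7% of all genes were higher and 18.7% lower with Sbk2 shRNA 1, and 65.0% and 21.1% with Sbk2 shRNA 2. After trimmed-mean scaling the shares were 33.7% and 33.7% with Sbk2 shRNA 1 and 40.2% and 40.8% with Sbk2 shRNA 2. Of 14 tested further Nrf2 targets for conjugation, export and reduction, 10 were higher and 2 lower (median 0.40) with Sbk2 shRNA 1 than with ppluc and 5 were higher and 7 lower (median -0.31) with Sbk2 shRNA 2. After trimmed-mean scaling 7 were higher and 2 lower (median 0.13) with Sbk2 shRNA 1 and 4 were higher and 9 lower (median -0.79) with Sbk2 shRNA 2. Both counts of genes higher with Sbk2 shRNA 2 hold Cbr3, at 0.599 to 0.653 CPM there. It passed the filter on low values only through those libraries, so its call was largely fixed in advance. The glutathione transferase Gsta2 averaged 10.3 CPM with Sbk2 shRNA 1 and 0.154 CPM with Sbk2 shRNA 2, against 3.56 CPM with ppluc, so its levels parted between the shRNAs, with changes of 1.43 ± 0.15 and -2.63 ± 0.15. Ephx1, an epoxide hydrolase, was higher with Sbk2 shRNA 2, and its changes were 0.19 ± 0.05 for Sbk2 shRNA 1, which turned to -0.09 after trimmed-mean scaling (adjusted p = 0.14), and 1.95 ± 0.05 for Sbk2 shRNA 2. Of 13 tested genes of glutathione supply and recycling, 9 were higher and 2 lower (median 0.37) with Sbk2 shRNA 1 and 13 were higher and 0 lower (median 1.16) with Sbk2 shRNA 2, none lower at an unadjusted p under 0.05 in limma. After trimmed-mean scaling 6 were higher and 3 lower (median 0.18) with Sbk2 shRNA 1 and 11 were higher and 1 lower (median 0.64) with Sbk2 shRNA 2. The 13 higher on the deposited CPM include Slc7a11. It too passed the filter only through the Sbk2 shRNA 2 libraries, so its call there was largely fixed in advance. Glutathione reductase (Gsr) rose by 1.12 ± 0.05 with Sbk2 shRNA 1 and 1.34 ± 0.05 with Sbk2 shRNA 2. Slc3a2, the heavy chain of the cystine transporter, averaged 243 CPM with Sbk2 shRNA 1 and 1191 CPM with Sbk2 shRNA 2, against 189 CPM with ppluc. Its changes were 0.36 ± 0.06 with Sbk2 shRNA 1, or 0.09 after trimmed-mean scaling (adjusted p = 0.16), and 2.65 ± 0.06 with Sbk2 shRNA 2. Chac1, which breaks glutathione down, averaged 4.40 and 66.7 CPM with the 2 shRNAs in the same order, against 3.74 CPM with ppluc, and its change was 0.21 ± 0.13 (adjusted p = 0.16, -0.04 after trimmed-mean scaling) and 3.98 ± 0.13 (adjusted p = 6.8e-15, 3.46 after trimmed-mean scaling).

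The counts below stand beside 54.7% of all genes higher and 18.7% lower with Sbk2 shRNA 1, and 65.0% and 21.1% with Sbk2 shRNA 2. After trimmed-mean scaling these shares were 33.7% and 33.7%, and 40.2% and 40.8%. Of 15 tested thioredoxin, peroxiredoxin and sestrin genes, 6 were higher and 5 lower (median 0.12) with Sbk2 shRNA 1 than with ppluc and 8 were higher and 6 lower (median 0.24) with Sbk2 shRNA 2. After trimmed-mean scaling 3 were higher and 7 lower (median -0.15) with Sbk2 shRNA 1 and 4 were higher and 8 lower (median -0.28) with Sbk2 shRNA 2. Sesn2, a stress-induced sestrin, rose by 1.78 with Sbk2 shRNA 2 (1.24 after trimmed-mean scaling). With Sbk2 shRNA 1 its change was 0.39 (adjusted p = 4.6e-06), and 0.11 after trimmed-mean scaling, where the call was lost (adjusted p = 0.080). The peroxiredoxin Prdx6 fell by 0.97 with Sbk2 shRNA 2. With Sbk2 shRNA 1 it stood at -0.08 (adjusted p = 0.13), and was called lower after trimmed-mean scaling, at -0.35 (adjusted p = 2.6e-06). Of 9 tested genes around the dismutases and peroxidases, 4 were higher and 2 lower (median 0.05) with Sbk2 shRNA 1 and 3 were higher and 3 lower (median 0.09) with Sbk2 shRNA 2. After trimmed-mean scaling 1 was higher and 6 lower (median -0.22) with Sbk2 shRNA 1 and 2 were higher and 7 lower (median -0.44) with Sbk2 shRNA 2. The copper chaperone of Sod1, Ccs, rose by 0.66 ± 0.07 with Sbk2 shRNA 1, where Sod1 fell, and by 1.62 ± 0.07 with Sbk2 shRNA 2. Of 12 tested genes of NADPH supply, 6 were higher and 4 lower (median 0.13) with Sbk2 shRNA 1 and 6 were higher and 5 lower (median 0.02) with Sbk2 shRNA 2. After trimmed-mean scaling 2 were higher and 5 lower (median -0.14) with Sbk2 shRNA 1 and 4 were higher and 8 lower (median -0.51) with Sbk2 shRNA 2. The mitochondrial NADPH sources Idh2 and Nnt fell with Sbk2 shRNA 1 and with Sbk2 shRNA 2, with log2 changes in that order of -1.47 and -2.54 for Idh2 and -0.53 and -1.61 for Nnt. Of 12 tested genes of haem and iron handling, 8 were higher and 2 lower (median 0.21) with Sbk2 shRNA 1 and 4 were higher and 5 lower (median -0.24) with Sbk2 shRNA 2. After trimmed-mean scaling 3 were higher and 6 lower (median -0.06) with Sbk2 shRNA 1 and 1 was higher and 9 lower (median -0.70) with Sbk2 shRNA 2. Biliverdin reductase B (Blvrb) was 0.27 ± 0.06 with Sbk2 shRNA 1, 0.00 after trimmed-mean scaling, and fell by 1.20 with Sbk2 shRNA 2. Of 7 tested oxidase and mitochondrial source genes, 3 were higher and 3 lower (median -0.14) with Sbk2 shRNA 1 and 2 were higher and 3 lower (median -0.17) with Sbk2 shRNA 2. After trimmed-mean scaling 3 were higher and 3 lower (median -0.28) with Sbk2 shRNA 1 and 1 was higher and 4 lower (median -0.55) with Sbk2 shRNA 2.

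**Figure D4:**
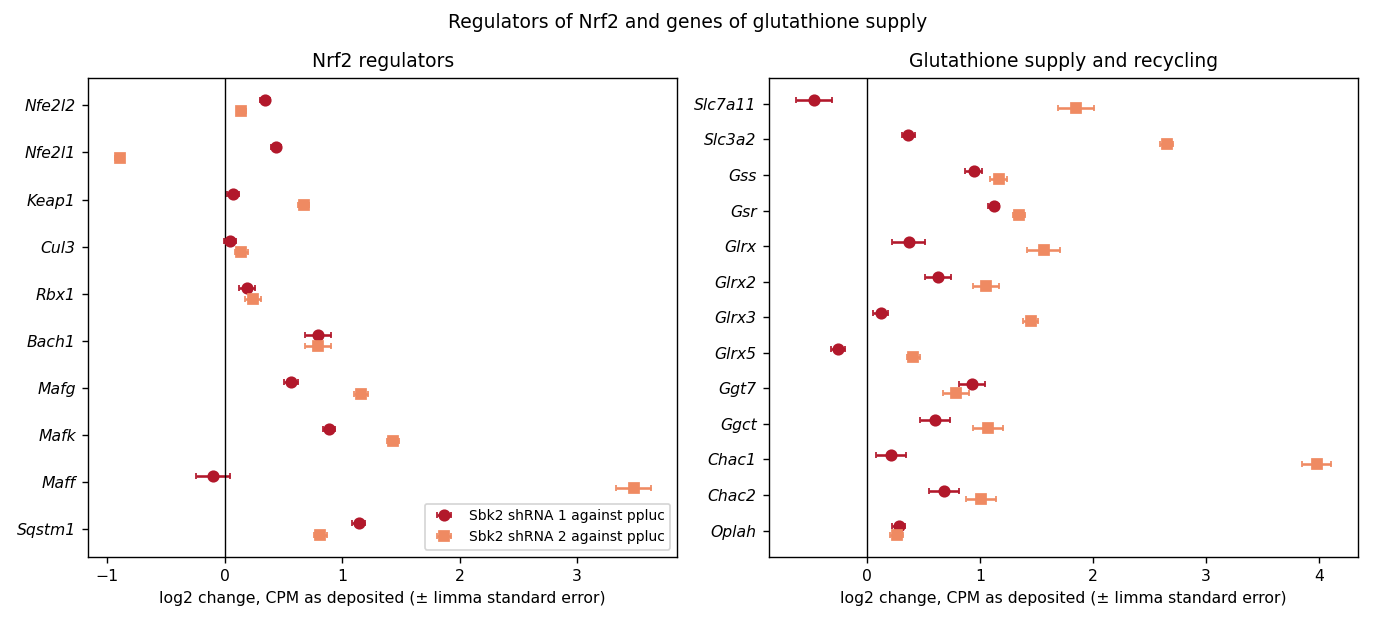
Log2 change against ppluc (horizontal axis) with Sbk2 shRNA 1 and with Sbk2 shRNA 2 of the 10 regulators of Nrf2 (left panel) and the 13 tested genes of glutathione supply and recycling (right panel); points are limma estimates on the deposited CPM and bars their SEs. Chac1 at 3.98, Maff at 3.48 and Slc3a2 at 2.65 lie farthest to the right with Sbk2 shRNA 2, and Nfe2l1 at -0.89 to the left.

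Between ppluc and untransduced cells the lists showed no common direction. On the deposited CPM 24.9% of all genes were higher and 32.2% lower. Of 10 regulators tested 4 were higher and 3 lower, and of 14 further targets 4 and 6. Of 13 glutathione supply genes 6 were higher and 4 lower, and of 15 thioredoxins, peroxiredoxins and sestrins 2 and 6. Of 9 dismutase and peroxidase relatives 1 was higher and 3 lower, and of 12 NADPH supply genes 4 and 4. Of 12 haem and iron genes 2 were higher and 2 lower, and of 7 oxidase genes 3 and 1. After trimmed-mean scaling the counts in this order were 5 and 1, 4 and 4, 6 and 4, and 3 and 6. The remaining lists then had 2 and 2, 6 and 4, 2 and 1, and 4 and 1. The shares of all genes were then 28.3% and 29.0%. Gsr rose by 0.63, Ephx1 by 1.07 and Sesn2 by 0.98 with ppluc. Mgst3, a membrane-bound glutathione transferase, was at -1.26, Oplah, which recycles oxoproline to glutamate, at -0.65, the NAD kinase Nadk2 at -0.97 and Alas1, which starts haem synthesis, at -0.65, all 4 called lower.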

How the data were processed

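The authors deposited, for each group, the mean of 3 libraries in CPM (reads scaled to the library total, RNA enriched for polyA and sequenced as paired 150-base reads, per the labels' protocols) and in TPM (scaled per transcript length), per the file headers. The submitters' processing notes name Rnor_6.0 and DESeq2 with no role given, and the sources used here do not give the aligner or counter. Reads of single libraries were recovered by arithmetic from the deposited CPM means, whose digits fix the whole-number reads of 3 libraries with whole-number totals. From 99.8% to 99.9% of features per group had exactly 1 such solution, including all 10 genes in all 4 groups. Of 3000 deliberately shifted control values per group, all drawn from low CPM means, 0 had any. Higher means, where most of the 10 genes lie, were not checked in this way. Where a feature had several, the one with the widest spread was kept, from those within the usual spread where there were any. Recovered reads did not sum exactly to the totals. For 1 untransduced library they came to 35724545 against a total of 35082868, and for another to 34459622 against 34919366. Recovered libraries carry no replicate number and none was left out. TPM of single libraries was not recovered.

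Genes reaching 0.5 CPM in 3 or more libraries were tested with limma 3.58.1 in R 4.3.3 on log2(CPM + 0.5), with 1 mean per group, 6 contrasts and Benjamini-Hochberg adjustment over all 12493 genes, called at an adjusted p under 0.05. Intervals are 95% intervals from the same fit. The fit was tested on simulated data. Alternatives were pseudocounts of 0.1 and 1, no filter, a filter of 2 CPM, trimmed-mean and median-of-ratios scaling, voom weights, a fit of only the groups compared, each library left out, and, added after the data were seen, the narrowest solution for features with several. A count test was not run. The 10 genes and all lists (116 genes, 110 analysed here, 92 tested) were chosen with earlier results of these data known. Genes named were drawn from the 10, all 10 regulators, and in each other list up to 3 genes with the smallest p in Sbk2 shRNA 2 against ppluc and up to 3 in ppluc against untransduced. Promoter windows came from RefSeq (GRCr8), and genes were matched by symbol.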

Additional observations from a re-analysis of the deposited data

Results flagged for a closer look

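For 6 of the 10 genes the change against ppluc differed between Sbk2 shRNA 1 and Sbk2 shRNA 2 in the direct contrast. On the deposited CPM 27.7% of all tested genes were called higher in this contrast and 53.2% lower. After trimmed-mean scaling all 10 genes were called, 8 higher and 2 lower, beside 38.9% and 38.8% of all genes. The difference on the deposited CPM is given here as the log2 change with Sbk2 shRNA 1 minus that with Sbk2 shRNA 2. The difference was 1.67 for Gclc, 1.13 for Gpx1, 1.04 for Txnrd1 and 0.40 for Srxn1, and it was -1.29 for Sod1 and -0.57 for Sod2. After trimmed-mean scaling the values were 1.93, 1.39, 1.31, 0.66, -1.03 and -0.31 in the same order. Adjusted p from limma was 1.4e-14 for Gclc, 1.1e-12 for Gpx1, 2.7e-12 for Txnrd1, 9.3e-04 for Srxn1, 1.5e-13 for Sod1 and 3.8e-09 for Sod2. With 3 libraries a group, no search for single libraries far from their group was made.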

How the results depend on the processing

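All 360 changes of the 10 genes under other pseudocounts and filters, voom weights and fewer groups kept their direction and call, as did all 60 with the narrowest solution and 707 of 720 with a library left out, but only 82 of 120 under another scaling. Values that turned their sign are given for trimmed-mean and then median-of-ratios scaling, which differ by construction in how libraries are centred. Against ppluc they were -0.10 and -0.10 for Cat with Sbk2 shRNA 1, and with Sbk2 shRNA 2 -0.33 and -0.31 for Cat and -0.36 and -0.34 for Sod1. Txnrd1 with Sbk2 shRNA 2 against ppluc turned to -0.0208 under the first scaling and kept its sign, at 0.0001, under the second. For Sbk2 shRNA 1 against Sbk2 shRNA 2 they were 0.21 and 0.19 for Nqo1, 0.25 and 0.23 for Gclm and 0.24 and 0.22 for Cat. Against untransduced cells they were -0.12 and -0.11 for Gclm with Sbk2 shRNA 1, -0.36 and -0.34 for Gclm, -0.0461 and -0.0193 for Sod1 and -0.50 and -0.47 for Gpx1 with Sbk2 shRNA 2, and 0.0265 and 0.0324 for Txnrd1 with ppluc. Under either scaling Sbk2 shRNA 2 had 3 genes higher and 6 lower than ppluc, and 3 higher and 4 lower than untransduced cells. Sbk2 shRNA 1 had 8 or 7 genes higher than Sbk2 shRNA 2, and 4 lower than untransduced cells. With each library left out in turn, the changes that crossed 0 ranged, for Sbk2 shRNA 1 against Sbk2 shRNA 2, from -0.1241 to 0.0014 for Nqo1, -0.0289 to 0.0057 for Gclm and -0.0512 to 0.0039 for Cat. They ranged from -0.0442 to 0.0450 for Txnrd1 between ppluc and untransduced cells, and from -0.0519 to 0.0034 for Cat and -0.0521 to 0.0449 for Gpx1 between Sbk2 shRNA 2 and untransduced cells. No paired analysis was possible because the deposited columns carry no replicate numbers. Totals of at least 30274847 reads put 3 reads at no more than 0.0991 CPM, below every value of the 10 genes.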

Other observations

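Slc7a11, the light chain of the cystine transporter, was singled out after its values were seen. It was at 0.0607 to 0.132 CPM with Sbk2 shRNA 1 and 2.26 to 2.65 CPM with Sbk2 shRNA 2, against 0.231 to 0.496 CPM with ppluc and 0.0286 to 0.162 CPM in untransduced cells. Its change against ppluc was -0.48 ± 0.16 with Sbk2 shRNA 1 (limma, adjusted p = 0.014), a value that rests on a few reads per library. With Sbk2 shRNA 2 the change was 1.85 ± 0.16. The gene passed the filter on low values only through the Sbk2 shRNA 2 libraries, so a p-value there would not be separate support. Gpx4, the peroxidase of membrane lipids, also chosen afterwards, averaged 196 CPM with Sbk2 shRNA 1 and 205 CPM with Sbk2 shRNA 2, against 181 CPM with ppluc and 176 CPM in untransduced cells.

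For Sod1 the authors' TPM and CPM group means gave different ratios. Sbk2 shRNA 1 over ppluc came to a log2 ratio of -0.64 in TPM and -1.12 in CPM, and ppluc over untransduced cells to -0.01 in TPM and 0.28 in CPM. Of the 12292 genes compared, 4.56% had a gap between both units farther from the median gap than Sod1 in the first comparison, and 9.17% of 12270 in the second. Group means do not show which libraries carry the gap.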
